A study of Mus musculus with 12 samples.

Results

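The mitosis, kinetochore and centriole genes described here are 49 genes listed by name for their roles in cell division. They were grouped into kinases and cyclins, the kinetochore, motors, condensin and the centriole. Of the 49 genes, 47 were among the 10697 genes of the table, which held genes that had passed the authors' filter on low counts, while *Cdc25c* and *Cks2* were not analysed here. Primary mouse adult fibroblasts (MAFs), which grow out of pieces of adult tissue in culture, were taken from wild-type C57BL6/j mice. They were given 100 µM thymol, a phenolic monoterpene of thyme, in DMSO for 24 h, or an equal volume of the solvent alone. Each group held 6 libraries, numbered 1 to 6, and the labels do not say whether these came from separate mice or cultures, so p-values measure only the spread between these libraries. Levels are log2 CPM, the base-2 logarithm of CPM, a gene's reads divided by the scaled total of its library and multiplied by a constant so that libraries of different depth can be compared, and a log2 fold change is the mean level with thymol minus the mean level with DMSO.

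A dividing cell first duplicates its centrosome, then condenses its chromosomes and attaches them to a spindle of microtubules. Cyclin-dependent kinase 1 with its B-type cyclins drives entry into mitosis, Polo-like and Aurora kinases build the spindle, and the kinetochore holds each chromosome to it. The spindle checkpoint delays division until all chromosomes are attached, after which the anaphase-promoting complex has cyclin B degraded and the cell is cut apart. Most of these genes are transcribed in G2 phase and mitosis, so their transcripts are widely used as marks of cycling cells.

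The cultures expressed the genes that define fibroblasts, with 16 of 18 fibroblast markers in the table at a median of 8.13 log2 CPM. All 20 macrophage markers were also in the table, at a median of 7.94 log2 CPM. Of the other lists, 2 of 10 endothelial, 2 of 10 muscle, 0 of 10 epithelial and 0 of 10 lymphoid markers were in the table. In such bulk samples, fewer cells of a type and less RNA per cell cannot be told apart, and the cells that the mitotic transcripts came from were not resolved. Libraries held 5435985 to 9049796 reads over the genes of the table, as recovered from the steps of the low values.

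Of the 47 genes, 42 had a log2 fold change above 0, which is 89.4% against 50.9% of all genes tested. Their median log2 fold change was 0.16, or 1.11-fold, against 0.0026 over all genes. Since the genes were listed with earlier results of these libraries known, these counts are a description, with no test over the list. Past an adjusted p-value of 0.05 in limma, 2 genes were higher, *Plk4* and *Ncapd2*, and 0 were lower. Those 2 are 4.26% of the 47, against 2.22% of all genes called in either direction, 0.654% called higher and 1.57% called lower. At an unadjusted p-value under 0.05, 15 genes were higher and 0 were lower, or 31.9% of the 47, against 5.35% of all genes higher and 6.44% lower. The plot of fold changes shows the individual values.

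**Figure D1:**
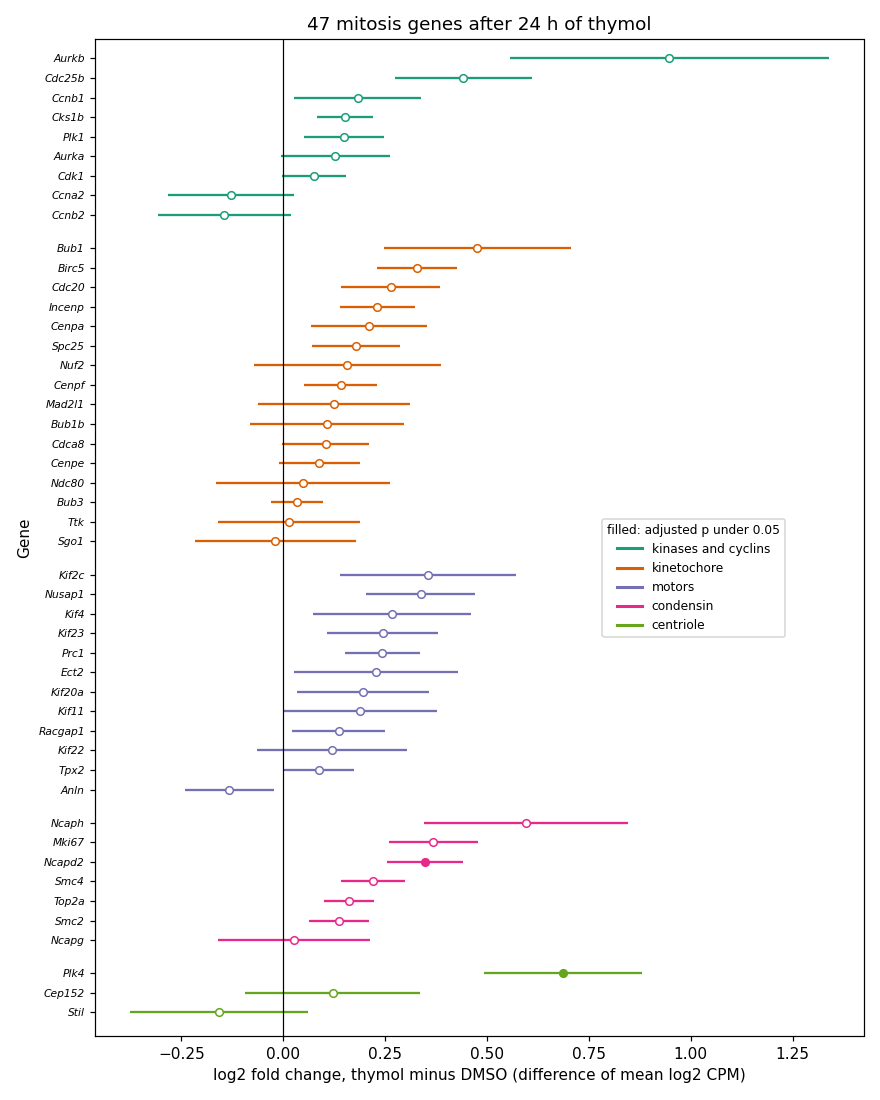
Log2 fold change (thymol minus DMSO, x axis) of each of the 47 genes (y axis), colored by group and sorted within it. Points are differences of group means with bars of 1 SE from limma, and filled points passed an adjusted p-value of 0.05. The points of 42 genes lie right of 0, from 0.013 for *Ttk* to 0.95 for *Aurkb*, and 5 lie left of it, down to -0.16 for *Stil*.

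The summed level of the 47 genes ranged from 1839 to 1937 CPM in the DMSO libraries with a median of 1910. With thymol it ranged from 1999 to 2262 CPM with a median of 2135. All 6 thymol libraries lay above every DMSO library, and the mean was 2126 ± 101 CPM with thymol and 1898 ± 35.1 CPM with DMSO (SD, n = 6 each), or 1.12-fold. The same separation held for 171 other genes of mitosis, at 9048 to 9258 CPM with DMSO and 9312 to 9654 CPM with thymol, with means 1.03-fold apart. The most abundant of these, the tubulin gene *Tubb5*, weighs most in that sum (log2 fold change 0.077, limma adjusted p = 0.556). The transcripts of the 47 genes made up 0.184% to 0.226% of a library. The group listed as condensin was separated too, with 491 to 554 CPM in DMSO libraries and 557 to 642 CPM with thymol. It includes *Top2a* and *Mki67*, which encode no condensin subunit, and none of its 7 genes was separated alone. A sum over the condensin subunits only was not made. In the kinetochore and centriole groups 5 of 6 thymol libraries lay above every DMSO library, in the motor group 3 and in the kinase and cyclin group 1.

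**Figure D2:**
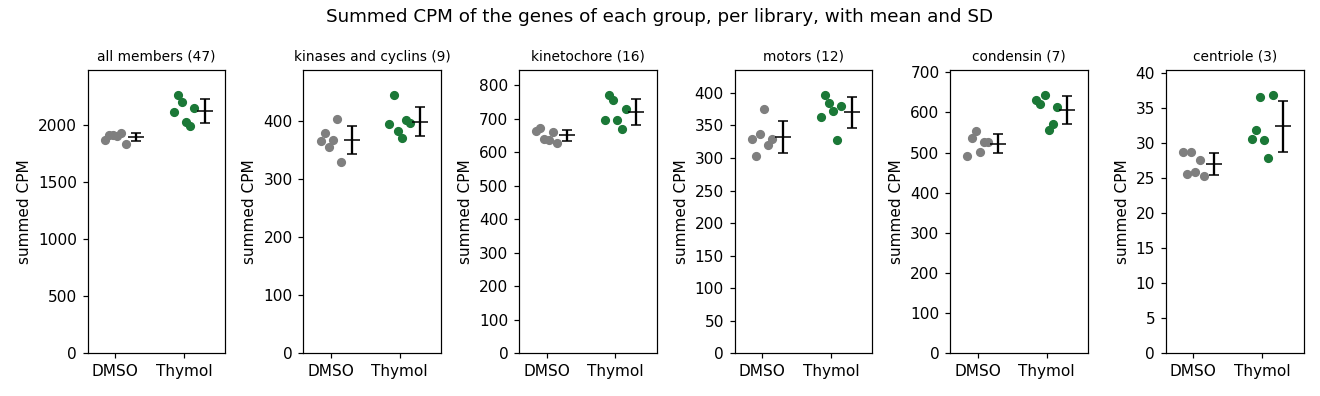
Summed CPM (y axis, from 0) of all 47 genes and of each group for the 6 DMSO (gray) and 6 thymol (green) libraries, with the mean and SD as bars. The thymol libraries sit above every DMSO library for all genes together (1999 to 2262 against 1839 to 1937). The same holds for the condensin group, which includes *Top2a* and *Mki67* (557 to 642 against 491 to 554). DMSO and thymol overlap for kinases and cyclins, the kinetochore, motors and the centriole.

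The libraries also differed among themselves. The highest of the 12 values fell in a thymol library for 37 of the 47 genes, and the lowest fell in a DMSO library for 33. Thymol replicate 2 was the highest library for 12 genes, thymol replicate 3 for 9 and thymol replicate 6 for 8. DMSO replicate 6 was the lowest library for 10 genes and DMSO replicate 4 for 7. The summed level of the 16 fibroblast markers was lower with thymol, at 15440 to 16571 CPM with DMSO and 14635 to 15277 CPM with thymol, a difference of -5.58% between the means with no overlap. Of these markers 10 were lower and 6 higher, with a median log2 fold change of -0.061. The called ones were the collagens *Col1a1* (log2 fold change -0.28, adjusted p = 2.9e-05) and *Col3a1* (-0.54, 4.42e-10). *Col1a1* was the most abundant of the 16 and so weighs most in their sum. The summed level of the 20 macrophage markers was 19566 to 21606 CPM with DMSO and 19653 to 23459 CPM with thymol, and these ranges overlapped. The most abundant of them was *Lyz2* (0.080, adjusted p = 0.536), while 10 were higher and 10 lower, with *Cd14* (-0.78, 7.32e-10) and *Itgam* (-0.31, 0.000705) called lower. The summed level of the muscle markers *Acta1* and *Des* was 132 to 159 CPM with DMSO and 92.6 to 125 CPM with thymol, and *Acta1* was called lower (-0.45, adjusted p = 5.03e-05). The part of these cell types in the mitotic result was not tested.

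Promoters were examined for what the genes share beyond their names. The cell cycle genes homology region (CHR) is a short element that recruits MuvB complexes, which repress many mitotic genes in resting cells and activate them before mitosis, and it often lies next to CCAAT boxes, which bind NF-Y. RefSeq windows of 300 bases on GRCm38.p6, from 250 bases before a transcription start to 50 after it, were matched by symbol for 41 of the 47 genes. No window was used for *Aurkb*, *Ccna2*, *Incenp*, *Kif20a*, *Tpx2* and *Smc4*. The letters searched on both strands were TTTGAA or TTTAAA for the CHR, CCAAT for the CCAAT box, and TTTCCCGC, TTTGGCGC, TTTCGCGC or TTTGCCGC for an E2F site, and a gene was counted where any of its windows held a match. CHR letters were in the windows of 33 of 41 genes (80.5%), against 22.3% of the 8529 genes of the table with a window and 27.6% of all 32851 windows. CCAAT letters were in 32 of 41 (78.0%), against 3671 of the 8529 genes of the table and 37.4% of all windows. Both were in 28 of 41 (68.3%), against 8.98% of the genes of the table and 10.7% of all windows. E2F letters were in 3 of 41 (7.32%), against 4.84% and 2.26%. In 1 of the 44 windows of these genes, matches of different motifs shared bases. A match of letters is a description and not a bound site.

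The windows of the called genes and of the gene with the smallest p-value in each group are printed below, 5′ to 3′ on the strand of the gene, with matched letters in capitals. They lie at chr3:40799701-40800000 (*Plk4*, plus strand), chr6:125191537-125191836 (*Ncapd2*, minus strand), chr2:131186698-131186997 (*Cdc25b*, plus strand), chr11:117848987-117849286 (*Birc5*, plus strand) and chr7:80294201-80294500 (*Prc1*, plus strand, the first of 2 overlapping windows).
Plk4: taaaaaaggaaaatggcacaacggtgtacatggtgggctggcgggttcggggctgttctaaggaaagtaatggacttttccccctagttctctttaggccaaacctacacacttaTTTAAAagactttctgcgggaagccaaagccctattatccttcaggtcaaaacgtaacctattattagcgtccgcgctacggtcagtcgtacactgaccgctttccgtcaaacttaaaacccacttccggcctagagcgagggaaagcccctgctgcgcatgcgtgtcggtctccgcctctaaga
Ncapd2: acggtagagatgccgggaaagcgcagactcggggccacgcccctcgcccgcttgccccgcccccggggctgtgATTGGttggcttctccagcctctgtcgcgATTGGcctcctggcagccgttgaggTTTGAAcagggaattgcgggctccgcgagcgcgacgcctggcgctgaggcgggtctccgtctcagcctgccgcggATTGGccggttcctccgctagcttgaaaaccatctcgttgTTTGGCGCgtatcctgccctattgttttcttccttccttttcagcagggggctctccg
Cdc25b: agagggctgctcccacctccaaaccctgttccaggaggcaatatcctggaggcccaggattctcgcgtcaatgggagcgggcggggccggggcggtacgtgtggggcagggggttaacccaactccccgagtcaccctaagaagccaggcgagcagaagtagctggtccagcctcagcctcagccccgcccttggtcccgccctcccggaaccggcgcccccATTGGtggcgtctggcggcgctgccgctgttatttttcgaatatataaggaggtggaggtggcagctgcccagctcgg
Birc5: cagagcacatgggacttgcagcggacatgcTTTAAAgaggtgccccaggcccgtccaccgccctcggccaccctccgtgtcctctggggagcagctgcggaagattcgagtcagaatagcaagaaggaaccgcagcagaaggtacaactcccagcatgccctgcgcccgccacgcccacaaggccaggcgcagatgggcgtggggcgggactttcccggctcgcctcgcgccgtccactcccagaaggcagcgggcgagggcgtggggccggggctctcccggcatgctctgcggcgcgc
Prc1: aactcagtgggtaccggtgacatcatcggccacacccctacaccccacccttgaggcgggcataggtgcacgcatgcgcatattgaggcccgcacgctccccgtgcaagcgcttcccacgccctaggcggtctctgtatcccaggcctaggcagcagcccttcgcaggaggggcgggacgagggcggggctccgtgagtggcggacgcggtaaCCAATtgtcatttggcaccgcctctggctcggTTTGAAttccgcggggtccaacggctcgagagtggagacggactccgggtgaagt
The *Ncapd2* window held 3 CCAAT matches on the reverse strand, CHR letters 123 bases before the start and E2F letters 8 bases before it. In the printed window, *Prc1* had CCAAT letters 37 bases and CHR letters 5 bases before the transcription start. Counted from the transcription start of its second window, the same letters lay 62 and 30 bases before it. *Plk4* and *Birc5* had CHR letters of the TTTAAA form, 135 and 220 bases before the start, and no CCAAT match. The *Plk4* window ends before the GENCODE start of that gene at 40800019. *Cdc25b* had a single CCAAT match on the reverse strand.

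Centriole duplication was represented by *Plk4*, *Cep152* and *Stil*. *Plk4* (chromosome 3, 40800019 to 40816883, plus strand, GENCODE M21 on GRCm38) encodes the kinase that starts centriole duplication. Its level was 2.86 to 3.33 log2 CPM with DMSO (median 3.21) and 3.49 to 4.06 with thymol (median 3.84). Every thymol library lay above every DMSO library, which held for 1 of the 47 genes. Over all genes, groups did not overlap for 1.68%, of which 0.524% were higher and 1.16% lower. A mean of 60.0 reads with DMSO and 89.3 with thymol stood behind the level of *Plk4*. Its log2 fold change was 0.69 ± 0.19 (SE, limma adjusted p = 0.041, exact two-sided permutation p = 0.0022, the smallest that 924 relabellings can give). Neither of the partners of PLK4 at the new centriole passed the test. *Cep152*, which encodes the scaffold that recruits PLK4, was at 3.04 to 3.58 log2 CPM with DMSO (median 3.10) and 2.90 to 3.92 with thymol (median 3.28), with a log2 fold change of 0.12 ± 0.21 (SE, adjusted p = 0.912). *Stil*, whose product PLK4 phosphorylates to build the cartwheel, was at 2.80 to 3.59 log2 CPM with DMSO (median 3.39) and 2.79 to 3.61 with thymol (median 3.07), with a log2 fold change of -0.16 ± 0.22 (SE, adjusted p = 0.872). Differences between these 3 genes in their response were not tested.

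The call for *Plk4* was close to the threshold. It was lost when DMSO replicate 1 (adjusted p = 0.0614), 2 (0.0935), 3 (0.0571) or 6 (0.0956) was left out, or thymol replicate 1 (0.0596), 2 (0.108), 3 (0.101) or 6 (0.119), while its log2 fold change stayed between 0.63 and 0.75. It was also lost in the odd-numbered libraries alone (0.52, adjusted p = 0.643) and in the even-numbered ones alone (0.86, adjusted p = 0.206). These fits held fewer libraries, and 70 and 167 genes passed in all, against 238 with all 12 libraries.

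**Figure D3:**
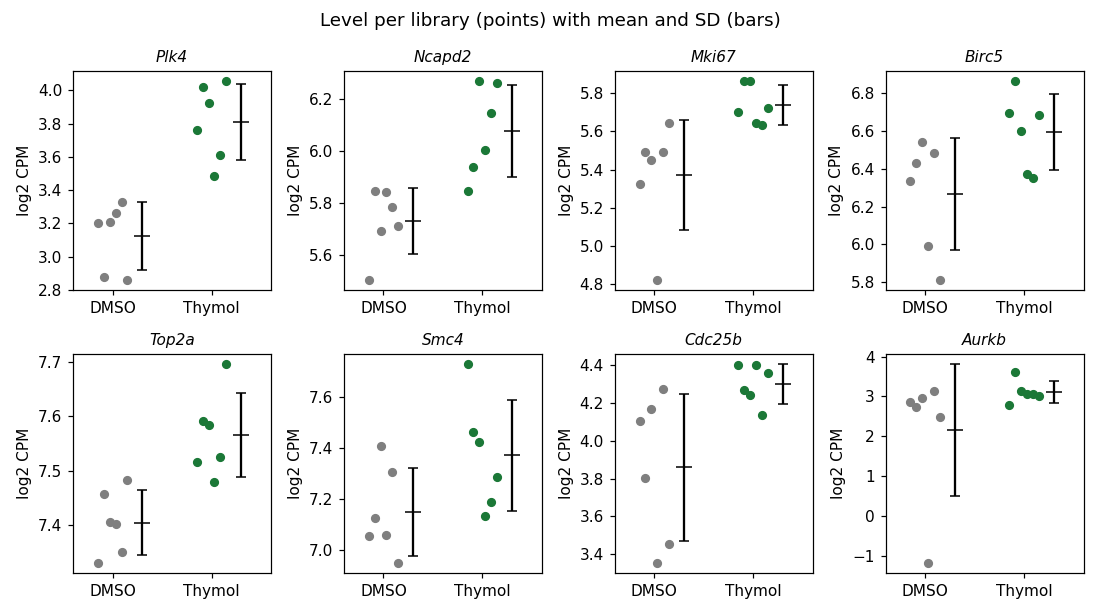
Level in log2 CPM (y axis, a separate range in each panel that does not start at 0) of 8 genes in the 6 DMSO (gray) and 6 thymol (green) libraries, with the mean and SD as bars. The groups do not overlap for *Plk4* (up to 3.33 against 3.49 and above), they meet for *Ncapd2*, and a single DMSO library at -1.19 sets the DMSO mean of *Aurkb*.

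Genes of chromosome condensation and structure came next. All 7 had a log2 fold change above 0, with a median of 0.22, and 5 had an unadjusted p-value under 0.05. *Ncapd2* (chromosome 6, 125168007 to 125191701, minus strand, with the small RNA gene *Scarna10* inside it on the same strand) encodes a HEAT-repeat subunit of condensin I, the ring complex that compacts mitotic chromosomes. Its level was 5.50 to 5.85 log2 CPM with DMSO (median 5.75) and 5.85 to 6.27 with thymol (median 6.08). Of the thymol libraries, 5 of 6 lay above every DMSO library, and thymol replicate 1 was level with the highest DMSO libraries. The log2 fold change was 0.35 ± 0.093 (SE, limma adjusted p = 0.0257, exact permutation p = 0.0043), on a mean of 373 reads with DMSO and 442 with thymol. The call was lost without DMSO replicate 1 (adjusted p = 0.0976) or 3 (0.0523) and without thymol replicate 3 (0.106), 5 (0.0511) or 6 (0.102). It was also lost in the odd-numbered (adjusted p = 0.16) and the even-numbered libraries alone (0.479), which are fits with fewer libraries. With all 12 libraries, it was lost in limma without the mean-variance trend (adjusted p = 0.138). Without DMSO replicate 1, thymol replicate 3 or thymol replicate 6, none of the 47 genes passed in limma, and 16, 13 and 13 then had an unadjusted p-value under 0.05.

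The other condensin I subunits gave unequal values. *Ncaph*, the kleisin that closes the ring, was at 2.14 to 3.12 log2 CPM with DMSO (median 2.49) and 2.69 to 3.81 with thymol (median 2.99), a log2 fold change of 0.60 ± 0.25 (SE, adjusted p = 0.29) on only 40.2 reads per DMSO library. *Ncapg*, the second HEAT-repeat subunit, differed by 0.026 ± 0.19 (SE, adjusted p = 0.984), and its sign turned without any 1 of DMSO replicates 1 and 4 and thymol replicates 2, 3 and 6, down to -0.072. The ATPases *Smc4* and *Smc2*, which condensin I shares with condensin II, were among the most abundant of these transcripts. *Smc4* was at 6.95 to 7.41 log2 CPM with DMSO (median 7.09) and 7.14 to 7.73 with thymol (median 7.36), a log2 fold change of 0.22 ± 0.079 (SE, adjusted p = 0.164). *Smc2* differed by 0.14 ± 0.073 (SE, adjusted p = 0.474).

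*Mki67* and *Top2a* mark chromosomes of cycling cells. *Mki67*, which encodes the Ki-67 protein that coats mitotic chromosomes, was at 4.82 to 5.64 log2 CPM with DMSO (median 5.47) and 5.63 to 5.87 with thymol (median 5.71). Only the highest DMSO library, replicate 6, reached into the thymol range. The log2 fold change was 0.37 ± 0.11 (SE, limma adjusted p = 0.0548, exact permutation p = 0.0065), just short of the threshold, and it was 0.26 without DMSO replicate 4. *Mki67* passed without DMSO replicate 6 or thymol replicate 5 (adjusted p = 0.0273 and 0.0496). *Top2a*, topoisomerase II alpha, had the highest mean of the 47 genes, at 7.33 to 7.48 log2 CPM with DMSO (median 7.40) and 7.48 to 7.70 with thymol (median 7.55). In 5 of 6 thymol libraries it lay above every DMSO library, but the log2 fold change was only 0.16 ± 0.061 (SE, adjusted p = 0.208).

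Kinetochore, checkpoint and chromosomal passenger genes were higher in 15 of 16 cases, with a median log2 fold change of 0.13. None passed the adjusted threshold in limma, and 4 had an unadjusted p-value under 0.05: *Birc5*, *Incenp*, *Cdc20* and *Bub1*. Of the passenger complex, which corrects faulty attachments through Aurora B, *Birc5* (survivin) came closest. *Birc5* was at 5.81 to 6.54 log2 CPM with DMSO (median 6.38) and 6.35 to 6.87 with thymol (median 6.64). The difference was 0.33 ± 0.098 (SE, limma adjusted p = 0.0592, exact permutation p = 0.0455), and 4 of 6 thymol libraries lay above every DMSO library. *Birc5* passed in 5 of the 12 fits that left out a library: without DMSO replicate 2 (adjusted p = 0.0499), 3 (0.0230) or 5 (0.0402), or thymol replicate 4 (0.0300) or 5 (0.0226).

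The scaffold of the passenger complex, *Incenp*, was at 5.44 to 5.93 log2 CPM with DMSO (median 5.83) and 5.77 to 6.12 with thymol (median 6.05), a log2 fold change of 0.23 ± 0.093 (SE, adjusted p = 0.251). *Cdca8* (borealin), which ties survivin to the scaffold, differed by 0.10 ± 0.11 (SE, adjusted p = 0.795). The catalytic subunit, *Aurkb*, had the largest log2 fold change of the 47 genes, 0.95 ± 0.39 (SE, adjusted p = 0.272), but this rested on a single library. DMSO replicate 4 held 1 read of *Aurkb*, against 37 to 60 in the other DMSO libraries and 42 to 73 with thymol. Without it the log2 fold change was 0.28.

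At the checkpoint and the outer kinetochore, values were small or scattered. *Cdc20*, the activator of the anaphase-promoting complex, was at 5.11 to 5.96 log2 CPM with DMSO (median 5.55) and 5.25 to 6.00 with thymol (median 5.83), a log2 fold change of 0.26 ± 0.12 (SE, adjusted p = 0.36). *Bub1*, a checkpoint kinase, was at 2.47 to 3.54 log2 CPM with DMSO (median 2.86) and 2.72 to 3.80 with thymol (median 3.50), a log2 fold change of 0.48 ± 0.23 (SE, adjusted p = 0.4). Both genes overlapped between groups, and *Bub1* rested on 54.8 reads per DMSO library. *Bub3*, its partner and the most abundant gene of the group, was at 7.29 to 7.45 log2 CPM with DMSO (median 7.37) and 7.20 to 7.50 with thymol (median 7.43), a log2 fold change of 0.033 ± 0.064 (SE, adjusted p = 0.92). Reads of *Bub3* and *Cdc20* come from 3′ ends that overlap genes on the opposite strand (*Fgfr2* and *Elovl1*), and whether counting used the strand is not given in the sources used here.

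The checkpoint genes *Mad2l1*, *Bub1b* and *Ttk* had log2 fold changes of 0.13, 0.11 and 0.013. The centromere histone *Cenpa*, the motor *Cenpe* and the corona protein *Cenpf* had 0.21, 0.088 and 0.14, and the NDC80 complex, which grips microtubule ends, had 0.049 for *Ndc80*, 0.16 for *Nuf2* and 0.18 for *Spc25*. *Sgo1*, which protects centromeric cohesin, was the single gene of the group below 0, at 3.17 to 3.86 log2 CPM with DMSO (median 3.41) and 3.08 to 3.79 with thymol (median 3.53), a log2 fold change of -0.019 ± 0.20 (SE, adjusted p = 0.989). Without any 1 of DMSO replicates 5 and 6 and thymol replicates 4 and 5 its sign turned, up to 0.061. None of these genes had an unadjusted p-value under 0.05.

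Motor, spindle and cytokinesis genes were higher in 11 of 12 cases, with a median log2 fold change of 0.21, none past the adjusted threshold in limma and 2 with an unadjusted p-value under 0.05. *Prc1*, which bundles the microtubules of the central spindle, was at 5.82 to 6.34 log2 CPM with DMSO (median 5.96) and 6.00 to 6.49 with thymol (median 6.22), a log2 fold change of 0.24 ± 0.092 (SE, adjusted p = 0.208). Its 3′ end overlaps *Rccd1* on the opposite strand, as those of *Ncapg* and *Ccna2* overlap *Lcorl* and *Exosc9*. *Nusap1*, a spindle microtubule binder, was at 4.33 to 4.54 log2 CPM with DMSO (median 4.50) and 4.45 to 5.04 with thymol (median 4.90), a log2 fold change of 0.34 ± 0.13 (SE, adjusted p = 0.239). For *Nusap1* 5 of 6 thymol libraries lay above every DMSO library, and for *Prc1* 2 of 6 did.

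The kinesins *Kif2c*, *Kif4*, *Kif23*, *Kif20a*, *Kif11* and *Kif22* had log2 fold changes of 0.36, 0.27, 0.24, 0.20, 0.19 and 0.12, with adjusted p-values of 0.51 to 0.89. The cytokinesis genes *Ect2* and *Racgap1* had 0.23 and 0.14. *Tpx2*, the activator of Aurora A and the most abundant gene of the group, was at 6.02 to 6.24 log2 CPM with DMSO (median 6.07) and 5.91 to 6.39 with thymol (median 6.26), a log2 fold change of 0.086 ± 0.087 (SE, adjusted p = 0.793). *Anln*, which encodes the cleavage furrow scaffold anillin, was the gene of this group below 0, at 5.26 to 5.63 log2 CPM with DMSO (median 5.36) and 4.95 to 5.55 with thymol (median 5.26), a log2 fold change of -0.13 ± 0.11 (SE, adjusted p = 0.726).

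Kinases and cyclins were higher in 7 of 9 cases, with a median log2 fold change of 0.15, none past the adjusted threshold in limma and 3 with an unadjusted p-value under 0.05. Besides *Aurkb* these were *Cdc25b* and *Cks1b*. *Cdc25b*, the phosphatase that starts the activation of CDK1, was at 3.35 to 4.27 log2 CPM with DMSO (median 3.95) and 4.14 to 4.40 with thymol (median 4.31), a log2 fold change of 0.44 ± 0.17 (SE, adjusted p = 0.208). The thymol libraries were close together, and 3 of 6 lay above every DMSO library. *Cks1b*, a small subunit of cyclin-dependent kinases and the most abundant gene of the group, was at 6.63 to 6.88 log2 CPM with DMSO (median 6.75) and 6.83 to 6.95 with thymol (median 6.91), a log2 fold change of 0.15 ± 0.069 (SE, adjusted p = 0.353).

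For the CDK1 and cyclin B engine of mitosis, differences lay within the spread between libraries. *Cdk1* was at 6.53 to 6.75 log2 CPM with DMSO (median 6.61) and 6.55 to 7.07 with thymol (median 6.67), a log2 fold change of 0.075 ± 0.079 (SE, adjusted p = 0.803). *Ccnb1* (cyclin B1) differed by 0.18 ± 0.16 (SE, adjusted p = 0.734), *Plk1* by 0.15 ± 0.099 (adjusted p = 0.616) and *Aurka* by 0.13 ± 0.13 (adjusted p = 0.804). The cyclins *Ccnb2* and *Ccna2* were the genes of this group below 0. *Ccnb2* was at 4.02 to 4.70 log2 CPM with DMSO (median 4.16) and 3.74 to 4.60 with thymol (median 4.03), a log2 fold change of -0.14 ± 0.16 (SE, adjusted p = 0.827), and *Ccna2* had -0.13 ± 0.16 (SE, adjusted p = 0.838). For both, 0 of 6 thymol libraries lay above every DMSO library, as also for *Ccnb1*, which had a log2 fold change above 0.

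Other genes of the same processes, 182 named by hand and 171 of them in the table, are background to these. Of the 171, 113 (66.1%) had a log2 fold change above 0, with a median of 0.055, and at an unadjusted p-value under 0.05 there were 11 higher (6.43%, against 5.35% of all genes) and 1 lower. In limma 0 of the 171 passed the adjusted threshold, and 0 did so with voom. The exact permutation test also gave 0, but after adjustment it could call no gene of the table. The gene with the smallest p-value in each list was *Plk2* (log2 fold change 0.24, adjusted p = 0.111), *Cenpb* (0.20, 0.11), *Kif15* (0.38, 0.34), *Ncapd3* of condensin II (0.54, 0.22) and the centrosome gene *Cdk5rap2* (0.32, 0.27). By list, the median was 0.065 for other kinases and cyclins, 0.061 for other kinetochore genes and 0.050 for other motors and spindle genes. It was 0.049 for other centriole genes and 0.069 for other condensin and cohesin genes. The last list also held *Top2b*, *H2az1*, *Hmgb2*, *Cdca2* and *Cdca3*. The difference between the 47 genes and the 171 was not tested.

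**Figure D4:**
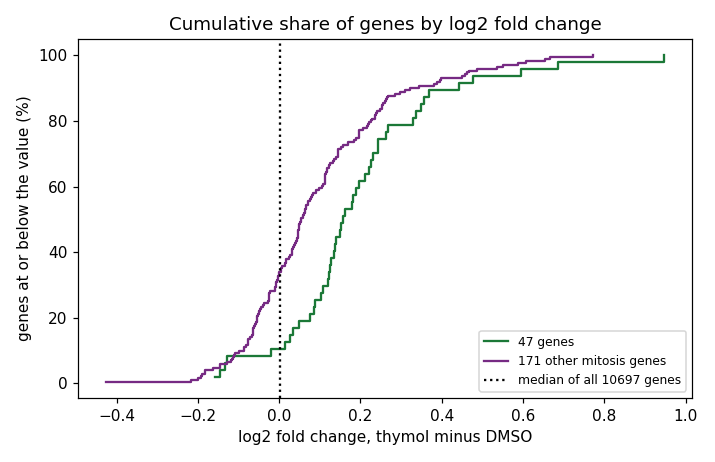
Cumulative share of genes (y axis, %) at or below each log2 fold change (x axis) for the 47 genes (green) and the 171 other mitosis genes (purple), with the median of all 10697 genes as a dotted line at 0.0026. The green curve crosses 50% at 0.16 and the purple curve at 0.055.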

How the data were processed

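RNA of 12 samples was sequenced with QuantSeq 3′ chemistry, which reads each transcript near its 3′ end, so levels were not divided by length. Reads were aligned by the authors to GRCm38 with STAR 2.5.3 and counted per gene with HTSeq 0.6.1. Genes with few reads or no annotation were then removed, and libraries were scaled by TMM. The deposited values are log2 CPM with a prior count, which the steps of the low values put at 1.96 reads in an average library. Undoing the logarithm gave whole reads within a tolerance of 0.02 for 100% of values under 200 reads. Reads are PCR products, so depth speaks of counting error only.

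The study tested counts. Since log2 values were deposited, limma 3.58.1 in R 4.3.3 was used instead (lmFit and trended eBayes on 2 groups of 12 libraries in all, no covariate). The p-values were two-sided, with Benjamini-Hochberg adjustment across the 10697 genes and a threshold of 0.05. The members and lists were chosen with earlier results of these data known, so no p-value over the list is given. Named with full values were members with p under 0.05 or separated groups, and in each group the 2 smallest p-values, the highest level and the lowest fold change, and the gene with the smallest p-value of each other list. Further genes were given as context. Alternatives were the replicate block, odd and even libraries, other variance models, voom on recovered reads, a pseudocount of 10 CPM, other scalings, a minimum mean log2 value of 5, exact permutation over 924 relabellings, and leaving out each library. Promoter windows are RefSeq's on GRCm38.p6, and gene positions are GENCODE M21.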

Additional observations from a re-analysis of the deposited data

Results flagged for a closer look

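In a group of 6 libraries, a library was marked where its gap to the nearest neighbor exceeded the share of the range of the group that Dixon's test allows at 95%. Of 58 groups examined, 5 were past it, and chance gives about 1 in 20, or 2.9. *Aurkb* in DMSO replicate 4 was at -1.19 log2 CPM, against 2.47 to 3.13 in the other DMSO libraries. *Incenp* in DMSO replicate 6 was at 5.44 log2 CPM, against 5.77 to 5.93. *Nusap1* in DMSO replicate 4 was at 4.33 log2 CPM, against 4.47 to 4.54, and *Ccnb2* in DMSO replicate 5 was at 4.70 log2 CPM, against 4.02 to 4.23. Thymol replicate 5 held 9049796 reads, against 5435985 to 6585162 in the other thymol libraries.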

How the results depend on the processing

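The count of 2 called genes varied between alternatives. It became 4 with the replicate number as a block and 4 with odd or even number as a term, where *Birc5* and *Mki67* joined *Plk4* and *Ncapd2*. It was 3 with robust variance, where *Mki67* joined them, and 3 with a pseudocount of 10 CPM, where *Birc5* did. With a minimum mean log2 value of 5, only 20 of the 47 genes were tested, and it was 2, *Ncapd2* and *Mki67*. It was 1 without the mean-variance trend, where *Plk4* stayed, *Ncapd2* was lost and 57 genes passed in all. In the odd-numbered libraries alone it was 0, where 70 genes passed in all and 6 of the 47 had an unadjusted p-value under 0.05. In the even-numbered libraries alone it was again 2, but these were *Aurkb* and *Birc5*, with *Plk4* and *Ncapd2* both lost, and DMSO replicate 4, with 1 read of *Aurkb*, is among them. Log2 fold changes in odd-numbered against even-numbered libraries were 0.094 and 0.56 for *Birc5*, 0.078 and 0.81 for *Cdc25b*, 0.013 and 1.88 for *Aurkb* and -0.54 and 0.23 for *Stil*, and the kinase and cyclin median was 0.027 and 0.12. The difference between odd and even libraries was not tested. The exact permutation test, adjusted over all genes, called 0 of the 47 and 0 genes in all, with 13 of the 47 at an unadjusted p-value under 0.05. Even *Plk4*, at the smallest p-value that this test can give, had an adjusted permutation p-value of 0.129. With these libraries the adjusted test could therefore call no gene, and its count of 0 decides nothing. Leaving out a library gave 0 to 3 of the 47 genes and 172 to 270 genes in all. The median log2 fold change stayed between 0.12 with a pseudocount of 10 CPM and 0.18 without DMSO replicate 4, and 40 to 43 of the 47 genes were above 0 with a library left out. It was 36 of 47 in the odd-numbered and 39 of 47 in the even-numbered libraries. None of the 171 other mitosis genes passed under any alternative run. The centriole median, over 3 genes, turned to -0.0027 without thymol replicate 3. Whether library numbers pair the samples was not tested. Same-numbered libraries correlated at -0.024 to 0.11 in their deviations from the group means, and 2 of 6 DMSO libraries correlated best with their own number. With the replicate number as a block, 332 genes passed in all, against 238 without it. Depth limits what can be read from sparsely sequenced genes such as *Aurkb*, *Ncaph* and *Bub1* with means of 41.2, 40.2 and 54.8 reads with DMSO.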

Other observations

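Of 24 factors that control cell cycle transcription, 21 were in the table. With thymol 12 were higher and 9 lower, with a median log2 fold change of 0.078. In limma 0 of the 21 were called after adjustment, while 2 were higher and 1 lower by an unadjusted p-value under 0.05. The shares over all genes were 50.9% above 0, 5.35% higher and 6.44% lower by that p-value. *Nfyc*, which encodes a subunit of the factor that binds CCAAT boxes, had a log2 fold change of -0.47 ± 0.18 (SE, adjusted p = 0.225) and all 6 thymol libraries lay below every DMSO library, as for 1.16% of all genes. Its partners *Nfya* and *Nfyb* had 0.21 and 0.11. The MuvB core gene *Lin9* had 0.44 ± 0.21 (SE, adjusted p = 0.385), the E2F partner *Tfdp1* had 0.32 ± 0.14 (SE, adjusted p = 0.303) and *Foxm1*, an activator of mitotic genes, had 0.22 ± 0.15 (SE, adjusted p = 0.649). The 9 lower genes, besides *Nfyc*, included the other E2F partner *Tfdp2* (-0.17), *E2f5* (-0.24) and *E2f6* (-0.15). Genes other than *Nfyc* were chosen for mention after their values were seen. *Mybl2*, *Lin52* and *Lin54* were not analysed here.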
